A study of Homo sapiens with 9 samples.

Results

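Tissue kallikreins are secreted serine proteases encoded side by side on chromosome 19. The 10 described here, KLK5 to KLK14, were picked by symbol through their Ensembl identifiers, and all 10 were found among the 78894 gene identifiers of the series. RNA was sequenced from CAL27, an established line of tongue squamous cell carcinoma, in a series about a tumour enhancer. There are 3 samples of Control cells and 2 samples of each knockout group (A2ko, A8ko, C9ko). Per the labels, all cells were grown without treatment in DMEM with serum, and the design is one of CRISPR editing. Neither the edited sequence nor the guides are named, so no target could be checked, and the labels leave unsaid whether a knockout group is 1 clone or a pool. The A2ko files are identical to each other, as are the A8ko files, and each pair was counted as 1 library, which leaves 7 distinct libraries (3 of Control, 1 of A2ko, 1 of A8ko, 2 of C9ko). Nothing states that samples of a group came from separate cultures, so the spread between these samples may be technical. P-values for C9ko against Control measure this spread, and those for all knockouts together also count the differences between knockout groups as spread.

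Kallikreins are made as inactive precursors that are activated when a short peptide is removed. In stratified squamous epithelium they work as a cascade: KLK5 can activate itself, KLK7 and KLK14, and the active enzymes cut the junction proteins that hold the outer cells together, which lets the cells shed. LEKTI, the product of SPINK5, inhibits KLK5, KLK7 and KLK14. Some kallikreins also cut protease-activated receptors at the cell surface.

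The sequences before the starts of KLK5 and KLK9, the members that rose most in C9ko, and of KLK11, which fell most, are shown because these genes moved in opposite directions within one cluster. They come from RefSeq on GRCh38.p14, minus strand, 5′ to 3′, and are limited to the longest stretch that no annotated exon covers. The GC box motif GGGCGG, on either strand, is in capitals. The stretches end 56 (KLK5), 43 (KLK9) and 58 (KLK11) bases before the start, so the bases next to it are not shown.
KLK5, chr19:50953094-50953288: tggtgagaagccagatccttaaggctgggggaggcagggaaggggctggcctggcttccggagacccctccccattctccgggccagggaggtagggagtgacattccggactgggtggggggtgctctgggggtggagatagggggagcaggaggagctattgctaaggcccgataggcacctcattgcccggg
KLK9, chr19:51009635-51009842: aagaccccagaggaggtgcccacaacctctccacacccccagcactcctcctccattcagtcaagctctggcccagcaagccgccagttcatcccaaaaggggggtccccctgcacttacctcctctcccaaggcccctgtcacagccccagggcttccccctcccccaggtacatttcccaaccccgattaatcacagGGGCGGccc
KLK11, chr19:51027704-51027896: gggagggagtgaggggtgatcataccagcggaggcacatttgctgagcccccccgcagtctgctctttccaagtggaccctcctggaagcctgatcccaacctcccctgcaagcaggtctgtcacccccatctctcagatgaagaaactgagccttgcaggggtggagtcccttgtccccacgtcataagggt

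RefSeq start sites were found for 9 members, with 16 starts in all, and KLK8 had none in the table used. In the 250 bases before each start, 5 motifs were searched on both strands. The GC box GGGCGG was found before 10 of the 16 starts, against 42.6% of the 35116 windows of all genes. Windows of a gene with several starts overlap, so these matches are 14 distinct positions. Counted by gene, 6 of the 9 held a box before at least 1 start, against 46.2% of the 27305 genes in the table, which have their own numbers of starts. KLK9 holds one 51 bases before its start, KLK5 holds none, and KLK11 holds 3 before another of its starts and none in the stretch printed. The TATA box TATAAA, the AP-1 motif TGANTCA, the Grainyhead-like motif AACCNGTT and the steroid receptor motif TGTTCT were found in 0 of the 16 windows, against 10.7%, 6.57%, 1.49% and 12.4% of all windows. A match describes letters only.

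In GENCODE release 29 on GRCh38, the 10 genes span 140.9 kb of chromosome 19, from 50943303 to 51084245, all on the minus strand and in numerical order. By chromosome position they are KLK5 (ENSG00000167754, 50943303 to 50953093), KLK6 (ENSG00000167755, 50958631 to 50969673), KLK7 (ENSG00000169035, 50976482 to 50984099), KLK8 (ENSG00000129455, 50996007 to 51002711), KLK9 (ENSG00000213022, 51003111 to 51009634), all protein coding. They are followed by KLK10 (ENSG00000129451, 51012739 to 51020175), KLK11 (ENSG00000167757, 51022216 to 51028039), KLK12 (ENSG00000186474, 51029092 to 51035230), KLK13 (ENSG00000167759, 51056206 to 51065114), KLK14 (ENSG00000129437, 51077495 to 51084245), likewise protein coding. KLK8 and KLK9 are the closest neighbours, 399 bases apart, and the widest gap, between KLK12 and KLK13, is 20975 bases. A protein-coding gene without a symbol, ENSG00000269741, overlaps both KLK8 and KLK9 on the same strand. Its transcripts hold 36.4% of the 31-base words of KLK8 and 90.2% of those of KLK9, so the split of reads among these 3 genes is uncertain, most of all for KLK9. ENSG00000269741 itself was at 3.28 to 6.26 TPM in Control. All knockout libraries lay below this range, at 1.45 for A2ko, 1.72 for A8ko, then 1.10 and 3.07 for C9ko. Its C9ko difference was -0.92 and not called (limma adjusted p 0.0738). No member shared a 31-base word with another member, and the other 8 shared at most 5.76% of theirs with any further genes. Antisense genes overlap KLK5 to KLK10 and KLK12 and reached at most 0.880 TPM, and whether reads were counted by strand is not given in the sources used here.

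Values are TPM, a share of the library's transcripts corrected for gene length, so levels can be set side by side between genes. TPM keeps no record of depth, which is therefore unknown. The 7 squamous epithelial markers were all present and summed to 14363 to 15223 TPM in Control, 4208 in A2ko, 6085 in A8ko, with 7974 and 7813 for C9ko. This sum is carried by KRT5, KRT14 and KRT6A, which with DSG3 were lower in every knockout library. CDH1 went the other way, from 100 to 106 TPM in Control to 138 to 177 in the knockout libraries. TP63 and EPCAM were below the Control range in A2ko and above it in C9ko. The 7 fibroblast markers summed to 10.8 to 12.3 TPM in Control and 7.43 to 17.7 in the knockout libraries, with COL3A1 listed at 0 throughout. The 6 leukocyte markers summed to 42.3 to 50.4 TPM in Control and 59.8 to 82.8 in the knockout libraries, carried by CD14 and CD68, whereas PTPRC reached at most 0.0232. The 4 endothelial markers summed to 3.51 to 4.55 TPM in Control and 8.63 to 30.1 in the knockout libraries, carried by CDH5, with KDR listed at 0 throughout. The part of these shifts in the kallikrein values was not tested, and in bulk RNA fewer cells of a kind and less RNA per cell cannot be told apart. Over the 17100 genes tested (at least 1 TPM in at least 2 distinct libraries), the median log2 difference from Control was 0.12 for A2ko, 0.09 for A8ko and 0.11 for C9ko, a shift that median of ratios scaling brought to 0.0209, -0.00828 and -0.0110.

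KLK5 was the most abundant member in every library and KLK8 came next. In Control, KLK5 was at 396 ± 18.4 TPM (SD, n = 3) and KLK8 at 228 ± 4.62, followed by KLK10 at 63.5 ± 3.15 and KLK9 at 42.0 ± 1.53. KLK6 at 19.7 ± 1.25, KLK11 at 18.2 ± 1.20 and KLK7 at 16.9 ± 2.48 overlapped in their Control values and could not be ordered. KLK14 at 1.40 ± 0.597 and KLK13 at 1.26 ± 0.410 also overlapped. KLK12 was at 0.432, 0.192 and 0.255 TPM in Control, listed at 0 for A2ko, and at 0.249 in A8ko and 0.256 and 0.262 in C9ko. It did not pass the filter on low values, while the other 9 members did and were tested. KLK9 stood above KLK10 in A8ko and both C9ko libraries, the reverse of their order in Control and A2ko.

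**Figure D1:**
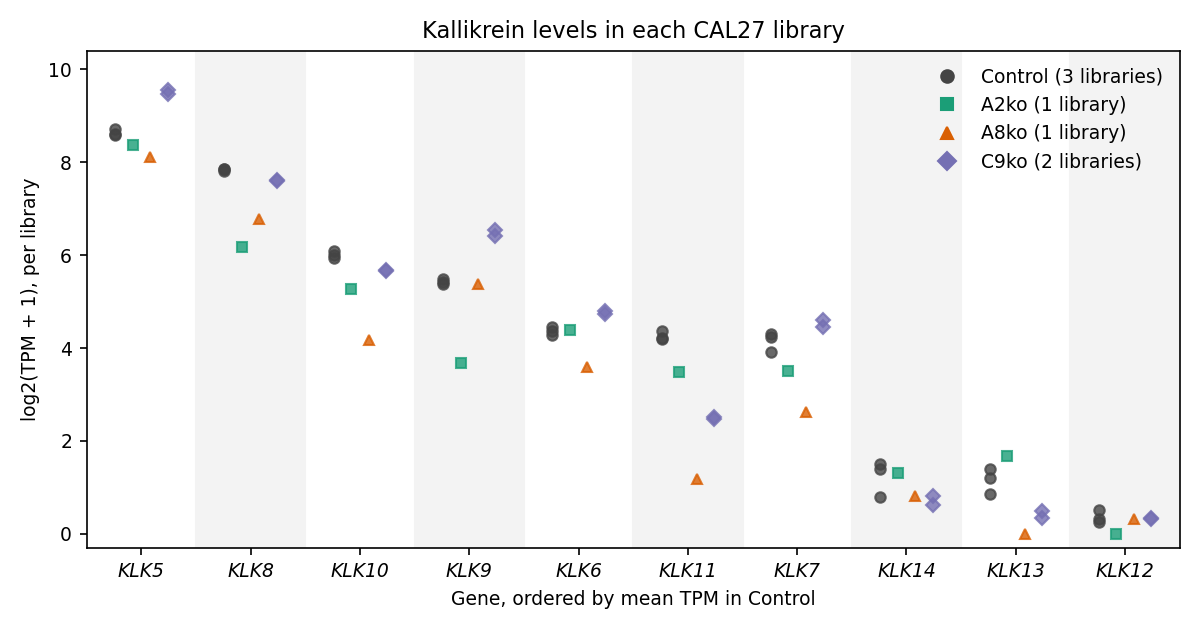
Level of each kallikrein as log2(TPM + 1), 1 point per library, with genes ordered by their mean TPM in Control. KLK5 and KLK8 lead in every library, C9ko lies above Control for KLK5 and KLK9, and A8ko lies far below it for KLK11.

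The 10 members together summed to 816, 763 and 783 TPM in Control. The sum was 493 TPM in A2ko and 459.8 in A8ko, both below all Control libraries, and 1136 and 1094 in C9ko, both above them. Relative to the Control mean of 787 ± 26.4 TPM (SD, n = 3), this is 62.6%, 58.4% and 142%. The make-up differed as well. KLK5 made up 49.5 to 51.2% of the sum in Control and a larger share in every knockout library, 66.7% for A2ko, 59.9% for A8ko, then 65.7% and 65.1% for C9ko. KLK8 made up 28.3 to 29.4% in Control and less in every knockout library, 14.4% for A2ko, 23.5% for A8ko, then 17.2% and 17.5% for C9ko. The KLK11 share was 2.14 to 2.57% in Control, 2.07% for A2ko, 0.276% for A8ko, then 0.404% and 0.431% for C9ko. These sums and shares are descriptions without a test.

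**Figure D2:**
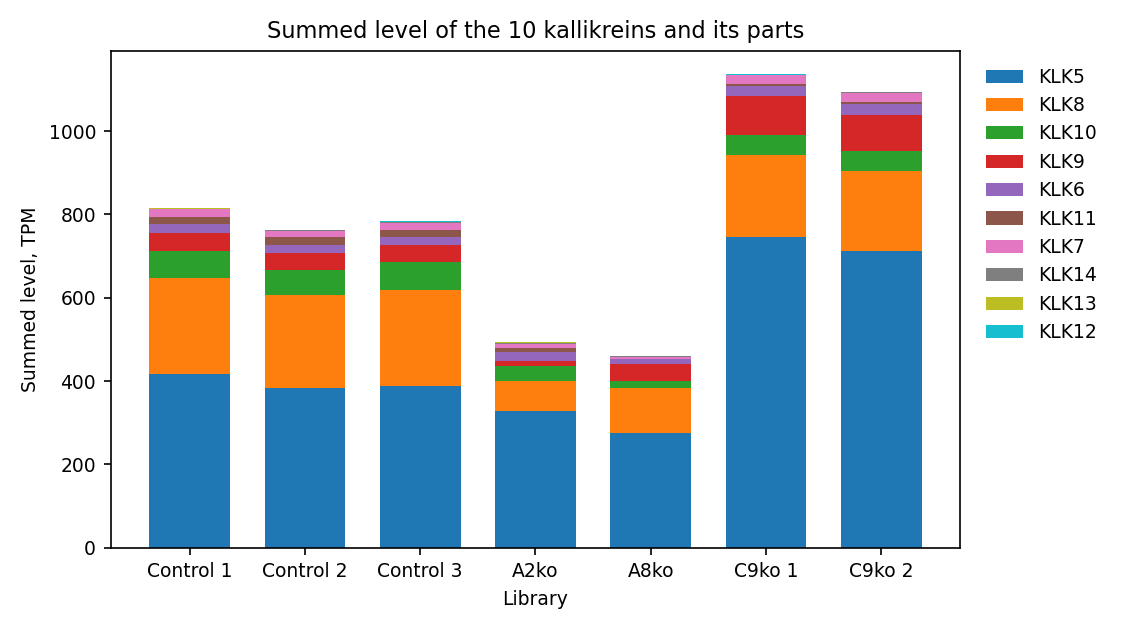
Summed TPM of the 10 kallikreins in each distinct library, stacked by gene (bars start at 0). The sum is 763 to 816 TPM in Control, 493 for A2ko, 459.8 for A8ko and at least 1094 in both C9ko libraries, where KLK5 alone takes at least 711.

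The ratio of KLK5 to KLK11 was 19.6 to 23.9 in Control, 32.2 for A2ko, 217 for A8ko, then 163 and 151 for C9ko, so all knockout libraries lay above the Control range. The ratio of KLK5 to KLK10 was 5.80 to 6.59 in Control and also higher in all knockout libraries, at 8.79 for A2ko, 16.2 for A8ko, then 15.2 and 14.2 for C9ko. The ratio of KLK9 to KLK8, the neighbours that share sequence with ENSG00000269741, was 0.180 to 0.189 in Control, below that range for A2ko (0.165) and above it for A8ko (0.377) and C9ko (0.468 and 0.442). The ratios have no test.

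C9ko, the knockout with 2 distinct libraries, was tested against Control to ask which kallikreins changed. KLK5, KLK6 and KLK9 rose, and KLK8, KLK10, KLK11 and KLK13 fell. With limma at a Benjamini-Hochberg adjusted p-value under 0.05 over all tested genes, 7 of the 9 tested members were called, against 29.5% of all tested genes. The 3 of 9 that rose are little more than the share of all tested genes called higher, 22.0%, would give. The 4 that fell compare with 7.42% called lower. KLK7 and KLK14 did not pass. The median log2 difference of the 9 was -0.23, against 0.11 over all tested genes. With 1 C9ko library left out, the spread comes from the Control libraries alone and the lone C9ko library is assumed to vary like them. Fewer members, and fewer of all tested genes, were then called, and every tested member kept its direction. Differences ran from -1.75 (KLK11) to 0.995 (KLK9) without C9ko 1, and from -1.78 to 1.11 for the same genes without C9ko 2. The mitochondrial share was 23.1%, 26.9% and 23.5% of the TPM in Control and less in both C9ko libraries, 20.2% and 17.9%, and the part of this in the kallikrein values was not tested.

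KLK5, the trypsin-like enzyme at the head of the shedding cascade, was at 417, 384 and 387 TPM in Control and at 746 and 711 in C9ko. Both C9ko libraries lay above all Control libraries, at 184% of the Control mean, and the rise was 0.88 log2 units (SE 0.07, limma adjusted p 0.000204). KLK9, a chymotrypsin-like member, was at 43.7, 40.7 and 41.6 TPM in Control and at 91.8 and 84.6 in C9ko. The groups did not overlap, with C9ko at 210.1% of the Control mean, and the rise was 1.05 (SE 0.07, limma adjusted p 0.000111). KLK6, a trypsin-like enzyme also made in the brain, was at 21.1, 19.5 and 18.6 TPM in Control and at 25.7 and 26.9 in C9ko. C9ko was again above all Control libraries, and the rise was 0.40 (SE 0.08, limma adjusted p 0.00948), or 0.37 with an adjusted p of 0.0580 without C9ko 2.

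KLK11, a trypsin-like member, was at 17.5, 19.6 and 17.6 TPM in Control and at 4.59 and 4.71 in C9ko. The C9ko values lay below all Control values, at 25.5% of the Control mean, a difference of -1.76 (SE 0.09, limma adjusted p 3.65e-05). KLK10, first described as normal epithelial cell specific 1, was at 63.3, 60.4 and 66.7 TPM in Control and at 49.3 and 49.97 in C9ko. The groups did not overlap, and the difference was -0.35 (SE 0.07, limma adjusted p 0.00914), or -0.34 with an adjusted p of 0.0502 without C9ko 1. KLK8, the trypsin-like enzyme also called neuropsin, was at 230.5, 223 and 231 TPM in Control and at 196 and 191 in C9ko. It too was lower in both C9ko libraries than in any Control library, with a difference of -0.23 (SE 0.06, limma adjusted p 0.0232). Without Control 1, Control 3, C9ko 1 or C9ko 2 the KLK8 difference was -0.22, -0.22, -0.25 and -0.22, close to the reported one, with adjusted p-values of 0.0617, 0.0709, 0.0805 and 0.122. With median of ratios scaling it was -0.37 (adjusted p 0.00279). The same scaling made the falls of KLK10 and KLK11 larger (-0.49 and -1.89). It made the rises of KLK5, KLK9 and KLK6 smaller (0.74, 0.92 and 0.27), and all of these were still called.

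KLK13, a trypsin-like member near the filter on low values, was at 1.32, 1.64 and 0.822 TPM in Control and at 0.273 and 0.411 in C9ko. The groups did not overlap, and the difference was -0.74 (SE 0.20, limma adjusted p 0.0361). Without Control 1, Control 2, C9ko 1 or C9ko 2 the KLK13 difference was -0.71, -0.62, -0.66 and -0.81, with adjusted p-values of 0.0882, 0.0970, 0.135 and 0.0888. Its adjusted p was also above the threshold with no filter on low values (0.137), and with a pseudocount of 0.1 the difference was -1.59 (adjusted p 0.0409). KLK7, the chymotrypsin-like enzyme of the outer skin layer, was at 18.6, 14.1 and 18.0 TPM in Control and at 20.8 and 23.2 in C9ko. Both C9ko values lay above the Control values, with a difference of 0.37 (SE 0.13, limma adjusted p 0.0724) that did not pass. KLK14, a trypsin-like enzyme of the epidermis, was at 1.85, 0.721 and 1.63 TPM in Control and at 0.749 and 0.537 in C9ko. The groups overlapped, and the difference of -0.52 (SE 0.24, limma adjusted p 0.159) did not pass, although it did without Control 2 (adjusted p 0.0349).

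**Figure D3:**
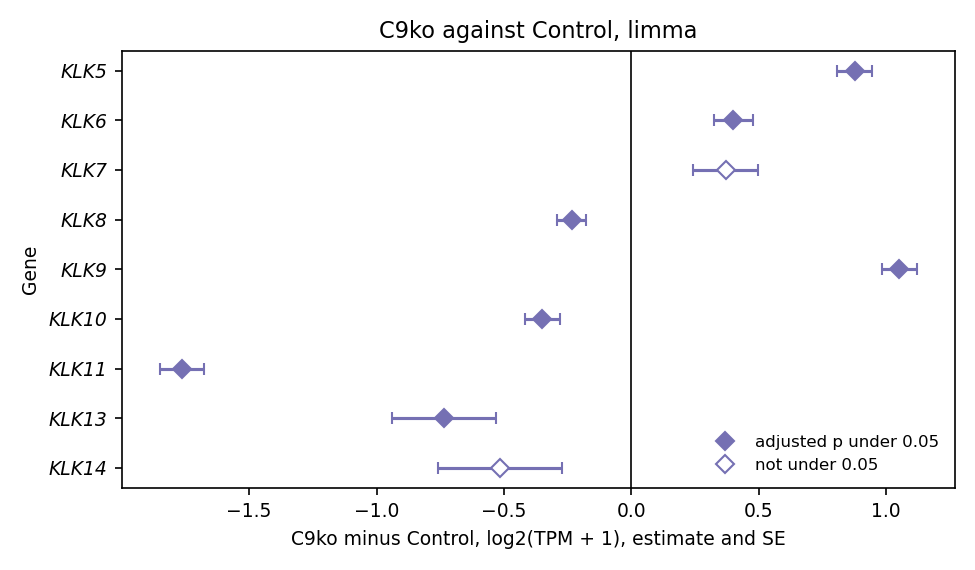
C9ko minus Control for the 9 tested kallikreins in chromosome order, as the limma estimate on log2(TPM + 1) with its SE, filled where the adjusted p is under 0.05. KLK5, KLK6 and KLK9 lie right of 0 and filled, KLK8, KLK10, KLK11 and KLK13 left of 0 and filled.

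A8ko has 1 distinct library, so its values have no replicate check and carry no p-value. Most tested kallikreins were low there. Genes were counted when they were higher or lower than all Control libraries and differed from the Control mean by 1 log2 unit or more. By this count 5 of the 9 tested members were lower and 0 higher, against 4.73% of all tested genes in either direction, 2.68% lower and 2.05% higher. Regardless of size, 7 of the 9 lay below the Control range, against 26.4% of all tested genes, and 0 above it, against 46.9%. KLK11 was at 1.27 TPM, 6.96% of the Control mean, a log2 difference of -3.08. KLK10 was at 17.0 TPM (-1.84), KLK7 at 5.15 (-1.53) and KLK8 at 108 (-1.07), which is 26.9%, 30.5% and 47.4% of their Control means. KLK13 was listed at 0. KLK5 at 275 TPM (-0.52) and KLK6 at 11.0 (-0.78) lay below the Control range but less than 1 log2 unit from the Control mean, while KLK9 at 40.8 and KLK14 at 0.758 TPM lay within it. The median log2 difference of the 9 was -1.07, against 0.09 over all tested genes.

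A2ko also has 1 distinct library, and the members farthest below Control in it were the neighbours KLK8 and KLK9. KLK8 was at 71.0 TPM, 31.2% of the Control mean (a log2 difference of -1.67), and KLK9 at 11.7 TPM, 28.0% of the Control mean (-1.75). These 2 of the 9 tested members met the count, both lower, against 5.07% of all tested genes in either direction, 1.53% lower and 3.54% higher. Both share sequence with ENSG00000269741, so the split of reads among these genes is uncertain. ENSG00000269741 also met the count in A2ko, at 31.2% of its Control mean. KLK5 at 329 TPM (-0.27), KLK7 at 10.3 (-0.65), KLK10 at 37.4 (-0.75) and KLK11 at 10.2 (-0.77) lay below the Control range but less than 1 log2 unit from the Control mean. In all, 6 of the 9 lay below the Control range, against 26.3% of all tested genes, and 1, KLK13 at 2.19 TPM, above it, against 50.4%. KLK6 at 19.8 and KLK14 at 1.47 TPM lay within it. The median log2 difference of the 9 was -0.65, against 0.12 over all tested genes. When each Control library was held against the other 2 in the same way, 0 members met the count in each case, against 0.614%, 0.661% and 0.643% of all tested genes, shares at which 0 of 9 carries no information on the members.

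**Figure D4:**
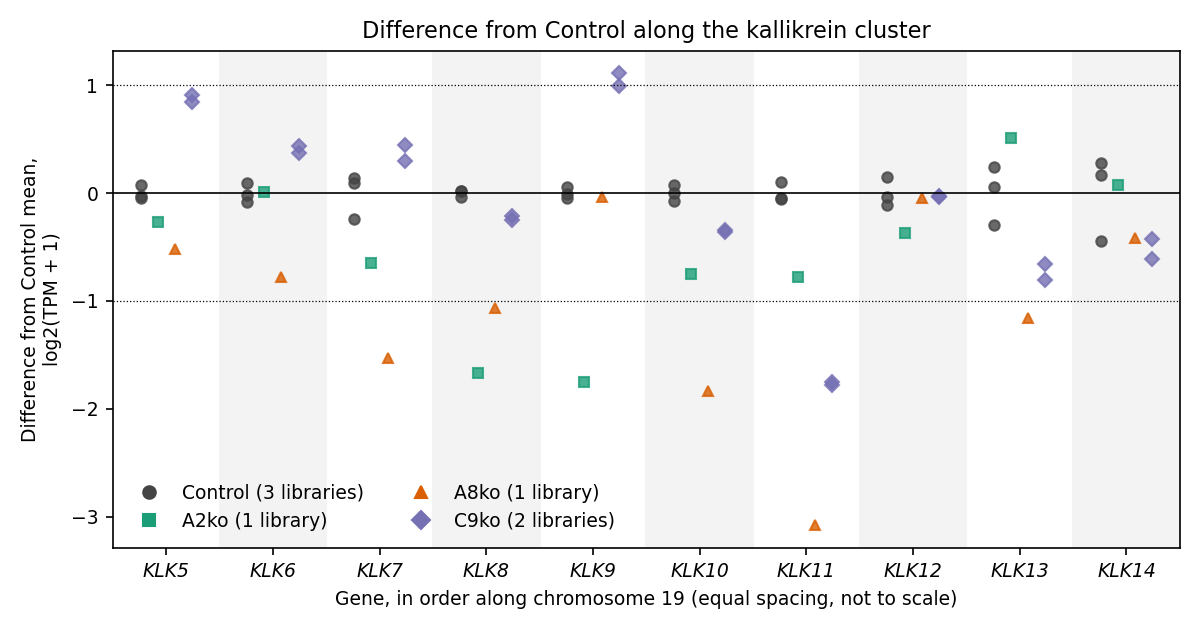
Difference of each library from the Control mean on log2(TPM + 1), with genes in their order along chromosome 19 and dotted lines at 1 unit. A8ko is the lowest library at KLK5, KLK6, KLK7, KLK10, KLK11 and KLK13, A2ko is the lowest at KLK8 and KLK9, and C9ko is above 0 for KLK5, KLK6, KLK7 and KLK9.

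For all knockouts together, with each knockout group as 1 value, limma called 0 of the 9 tested members, against 1.03% of all tested genes (0.509% higher, 0.520% lower). KLK8, KLK10 and KLK11, or 3 members, had an unadjusted p under 0.05, as did 16.0% of all tested genes. KLK11 differed most, by -1.87 (SE 0.52, limma adjusted p 0.162). KLK8 differed by -0.99 (limma adjusted p 0.218) and KLK10 by -0.98 (limma adjusted p 0.244). The KLK8 difference was -0.65 without A2ko and the KLK10 difference -0.55 without A8ko, neither called. These 3 members lay below all Control libraries in 4 of 4 distinct knockout libraries, as did 4.61% of all tested genes. Without A2ko, KLK11 was called (-2.42, limma adjusted p 0.0101), as were 1993 of all 17100 tested genes. Without A8ko, the KLK11 difference was -1.27 and not called (limma adjusted p 0.126). By a count that asks for 1 log2 unit or more on the same side in every knockout, 0 of the 9 members changed the same way, against 0.579% of all tested genes. At shares of 1.03% and 0.579%, 0 of 9 carries no information on the members. The 3 knockouts share their Control libraries.

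The other 5 kallikreins of the cluster were at low levels. KLK1, which releases kinins from kininogen, was the 1 that was tested, at 0.956, 1.90 and 1.63 TPM in Control, 1.09 for A2ko, 0.0545 for A8ko and 0.427 and 0.467 for C9ko, where it was lower (-0.77, SE 0.21, limma adjusted p 0.0340). KLK3, the prostate-specific antigen, was listed at 0 in all libraries, and KLK2, KLK4 and KLK15 were at most 0.392 TPM. KLK2, KLK3, KLK4 and KLK15 were not tested and are named here after their values were seen. Of 21 genes listed as neighbours on either side of the cluster, 7 were tested. In C9ko 2 of these were called lower, against 7.42% of all tested genes, and 0 higher, against 22.0%. Counted in either direction, the share called was near the 29.5% of all tested genes. JOSD2, a deubiquitinase, was at 24.3 to 27.5 TPM in Control and at 18.4 and 19.3 in C9ko (-0.43, limma adjusted p 0.00657). ETFB, a subunit of the mitochondrial electron transfer flavoprotein, was at 84.0 to 101 TPM in Control and at 61.0 and 65.1 in C9ko (-0.55, limma adjusted p 0.00448).

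Of 17 listed inhibitors of kallikreins or of other proteases, 10 were tested. In C9ko 4 were called higher and 5 lower, against 22.0% and 7.42% of all tested genes. For all knockouts together 1 was called higher (SERPINA1) and 3 lower (PI3, A2ML1 and SPINK5), against 0.509% and 0.520%. PI3, or elafin, an elastase inhibitor of epithelia, was at 90.2 to 99.7 TPM in Control and 6.32 to 25.9 in the knockout libraries, with no overlap (all knockouts, -2.95, limma adjusted p 0.0279). A2ML1, a broad protease trap of the epidermis, was at 2.22 to 2.44 TPM in Control and 0.0481 to 0.372 in the knockout libraries (all knockouts, -1.51, limma adjusted p 0.0210). SPINK5, the LEKTI gene, named here after its values were seen, was at 2.12 to 2.999 TPM in Control and 0.523 to 0.666 in the knockout libraries (all knockouts, -1.15, limma adjusted p 0.0351). SERPINA1, alpha-1 antitrypsin, was at 1.51 to 2.51 TPM in Control and higher in every knockout library, at 10.1 to 13.0 (all knockouts, 2.10, limma adjusted p 0.00668). SERPINB13, a serpin of squamous epithelium, was at 94.9 to 103 TPM in Control and fell in C9ko to 35.6 and 35.8 (-1.43, limma adjusted p 2.58e-05), with 88.3 for A2ko and 16.8 for A8ko. SPINT1 and SPINT2, membrane inhibitors of matriptase, rose in C9ko by 0.37 (limma adjusted p 0.00312) and 0.53 (limma adjusted p 0.00537).

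Of 16 other serine proteases and activators, 10 were tested, and in C9ko 5 were called higher and 4 lower, against 22.0% and 7.42% of all tested genes. PRSS22, a tryptase, was at 50.1 to 54.8 TPM in Control and 90.0 to 122 in the knockout libraries and was called higher for all knockouts together (1.05, limma adjusted p 0.0244). PLAU, urokinase, was at 221 to 251 TPM in Control and rose in C9ko to 454 and 425 (0.91, limma adjusted p 0.000290). TMPRSS2 rose in C9ko by 0.55 (limma adjusted p 0.00478) and was highest in A2ko, at 10.46 TPM, against 3.49 to 3.74 TPM in Control. TMPRSS11D, an airway trypsin-like protease, was at 1.46 to 1.81 TPM in Control and 0.0695 to 0.365 in the knockout libraries, lower for all knockouts together (-1.15, limma adjusted p 0.0437). PRSS3, mesotrypsin, was at 2.97 to 4.55 TPM in Control and fell in C9ko to 0.496 and 0.983 (-1.45, limma adjusted p 0.00231), and was at 1.10 for A2ko and listed at 0 for A8ko. TMPRSS4 fell in C9ko by 0.98 (limma adjusted p 0.00833).

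Of 21 listed substrates and receptors, 11 were tested. In C9ko 3 were called higher, a share near the 22.0% of all tested genes, and 5 lower, against 7.42%. The shedding substrates of skin were at or near 0 and are named here after their values were seen: CDSN was listed at 0 in all libraries, and DSG1 and DSC1 reached at most 0.345 and 0.222 TPM. DSG3, a desmoglein of the lower layers, was at 34.7 to 39.0 TPM in Control and 11.3 to 21.9 in the knockout libraries, and fell in C9ko by 1.05 (limma adjusted p 0.000188). DSC2, a desmocollin, fell in C9ko by 0.60 (limma adjusted p 0.0379). IGFBP3, which binds insulin-like growth factors, was at 1143 to 1283 TPM in Control and 456 to 829 in the knockout libraries, with a fall in C9ko of 0.58 (limma adjusted p 0.00196). L1CAM, a neural adhesion molecule, was at 4.60 to 5.33 TPM in Control and rose in C9ko to 44.2 and 44.4 (2.90, limma adjusted p 7.68e-06), and was at 16.9 in A2ko, above the Control range, and at 2.03 in A8ko, below it. IL1B, a cytokine, rose in C9ko by 0.87 (limma adjusted p 0.000400) and CDH1, E-cadherin, by 0.74 (limma adjusted p 0.000249).

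**Figure D5:**
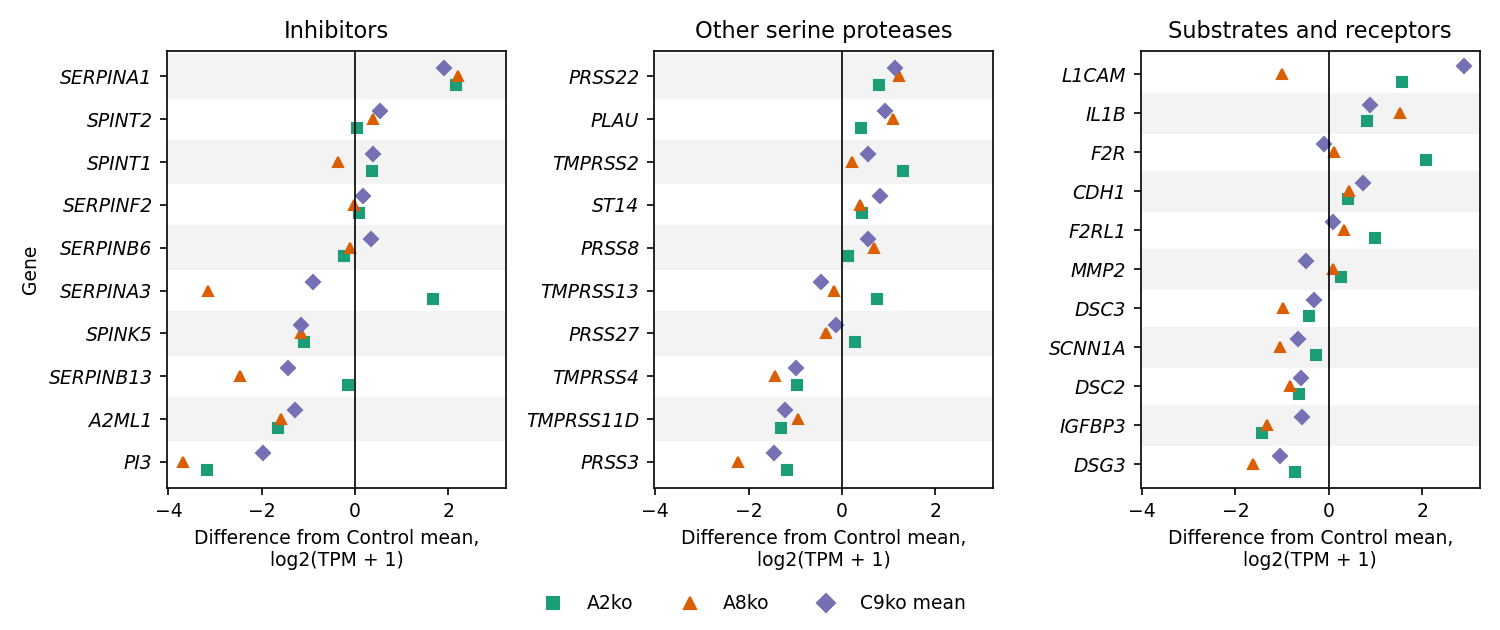
Difference from the Control mean on log2(TPM + 1) for the tested inhibitors, other serine proteases, and substrates and receptors, 1 point for each knockout group (C9ko as the mean of 2 libraries). PI3 and A2ML1 are left of 0 and SERPINA1 right of 0 in all 3 groups, and L1CAM lies on both sides.

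Among 9706 protein-coding genes with a symbol and at least 5 TPM in Control, those whose differences from Control came closest to KLK5 over the 4 knockout libraries were RPL32, IFITM1, IFNGR1, THOC7 and LRRFIP2, with mean absolute gaps of 0.10 to 0.17 log2 units. RPL32, THOC7 and LRRFIP2 lie on chromosome 3, IFITM1 on 11 and IFNGR1 on 6, and the share of the 9706 genes on chromosome 3 was not counted. Closest to the sum of the 10 members were MDK, SEMA3F, GPCPD1, CTSB and SAMHD1 (chromosomes 11, 3, 20, 8 and 20), with gaps of 0.0828 to 0.177. These likenesses rest on 4 libraries and describe them only.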

How the data were processed

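The deposited values are TPM per Ensembl gene identifier, computed by the authors, 1 file per sample. Per the labels' protocols, RNA was taken with TRIzol and libraries were made by the dUTP method. The labels give the RNA as polyA. The build is hg38, per the submitters' processing notes. Aligner, quantification tool, annotation release and use of strand are not given in the sources used here. Identical files of a group were counted as 1 library. A table of identifiers gave symbols for 61463 of 78894, GENCODE release 29 gave positions and RefSeq gave promoter sequences.

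Values were analysed as log2(TPM + 1), which understates changes of low genes. Genes with at least 1 TPM in at least 2 distinct libraries were tested (17100). limma 3.58.1 in R 4.3.3 (lmFit, eBayes with trend) fitted the 4 groups for C9ko against Control and, with 1 value per knockout group, 3 knockout values against 3 Control libraries. P-values were Benjamini-Hochberg adjusted over all tested genes and called under 0.05. For A2ko and A8ko, genes beyond the Control range by the stated size were counted. The fits were tested on simulated data in which all knockout libraries shifted alike, with a spread taken from Control and C9ko. Differences between knockouts were not simulated.

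The members and lists were chosen with earlier results of these data known. From each list the text names at most 3 called genes per direction, by mean difference over the knockout groups, and any other is said to be named after its values were seen. Alternatives were a pseudocount of 0.1, no filter, a mean of at least 5 TPM, median of ratios scaling, leaving out libraries, C9ko and Control only, a replicate block, and all 9 files as separate libraries.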

Additional observations from a re-analysis of the deposited data

Results flagged for a closer look

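For 5 of the 9 tested kallikreins, knockout groups lay on opposite sides of the Control range, as did 30.7% of all tested genes. KLK9 lay above it in C9ko and below it in A2ko, with 2.81 log2 units between these groups. KLK7 lay above it in C9ko and below it in A2ko and A8ko, with 1.90 between the highest and lowest group. KLK13 lay above it in A2ko and below it in A8ko and C9ko, with 1.67 between the highest and lowest group, at levels of at most 2.19 TPM. KLK5 lay above it in C9ko and below it in A2ko and A8ko, with 1.40 between the highest and lowest group. KLK6 lay above it in C9ko and below it in A8ko, with 1.18 between them. No test was made of these differences, as A2ko and A8ko hold 1 distinct library each.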

How the results depend on the processing

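KLK5, KLK9 and KLK11 were called in C9ko in all 13 settings, the reported one included, and the tested members kept their direction there. In C9ko, 5 members were called without Control 1, 7 without Control 2 and 6 without Control 3. Of all 17100 tested genes, 4174, 3833 and 3874 were called in these settings. C9ko and Control share replicate numbers, but with 2 such pairs same-numbered libraries did not deviate together (r of -0.053 and -0.012 across genes). The numbers were therefore not taken as a pairing. With the replicate block 4 members (KLK5, KLK9, KLK11 and KLK13) and 3248 genes were called, and KLK6, KLK8 and KLK10 were not. Over all genes, C9ko had 5038 calls, 8166 with all 9 files and 3301 without C9ko 2. For all knockouts together, 1 member (KLK11) and 1993 genes were called without A2ko, against 0 and 176 as reported, and 5 to 11 genes without 1 Control library. There KLK5 turned to -0.092 with median of ratios scaling and to -0.39 without C9ko, KLK6 to 0.20 without A8ko and KLK9 to 0.51 without A2ko, none of them called, and the cause was not tested. A2ko had the same 2 members counted in all settings and A8ko 4 to 5. Unknown depth limits what can be said of KLK12, KLK13 and KLK14.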
